A study of Homo sapiens with 6 samples.

Results

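The genes described here are 50 genes of mitosis and of the G2/M step of the cell cycle, measured by RNA sequencing in OVCAR8 cells. They were chosen by name, as cyclins and their kinase, mitotic kinases, spindle checkpoint, kinetochore, spindle, cytokinesis, chromosome separation and condensin genes. The rule used no measured value, but the list was drawn up with earlier results of these data known. The table lists 38637 genes, all 50 members are among them, and all 50 passed the filter on low values that left 16178 genes for testing. OVCAR8 is an established human ovarian cancer cell line, given as wild type. Cells received DMSO, the solvent control, or 2 nM pladienolide B, a small molecule that inhibits the splicing factor SF3B1, for 72 h, and each group held 3 samples. The labels give 1 cell line, 1 dose and 1 time, and they do not say whether the 3 samples of a group came from separate cultures, so that the p-values may measure technical spread only.

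Cells that pass from G2 into mitosis switch on a shared set of genes whose RNA is scarce in G1 and most abundant in G2 and M. Cyclin B with CDK1 starts mitosis, Aurora and Polo-like kinases organise the spindle, the kinetochore ties chromosomes to microtubules, and the spindle checkpoint holds back the anaphase-promoting complex until every chromosome is attached. Many of these promoters carry a cell cycle genes homology region, or CHR, which the MuvB core binds, together with MYBL2 and FOXM1 when the genes are on or with the repressive DREAM proteins when they are off. In RNA from bulk cells, fewer cells in G2 and mitosis and less RNA per cell cannot be told apart.

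Reads recovered on genes numbered 22621338 to 26130882 per sample, and a member had at least 293 reads in every sample. Replicates 1 and 3 of DMSO differed least, with a chi-square per degree of freedom of 2.01 where counting alone gives 1. DMSO replicate 2 stood apart from both, with values of 7.38 and 7.28, and the pladienolide B replicates lay between 3.18 and 4.84. Levels are given as adjusted reads, the read counts that the authors adjusted to a common library size. Of 10 epithelial and ovarian cancer markers, all tested, PAX8 (4011 to 4581 adjusted reads over the samples) and EPCAM did not pass the test, KRT8 and KRT18 rose with log2 fold changes of 0.27 and 0.29, and KRT7 and MSLN fell with -0.64 and -0.44. WT1, KRT19, MUC16 and CDH1 stayed at or below 41.6 adjusted reads in every sample, and of these CDH1 rose. Of 6 leukocyte markers CD3E and PTPRC had at most 2.0 adjusted reads in any sample, and CD14, CD79A and LYZ at most 19.7. Only CD68, which is not limited to leukocytes, was tested and rose, from 1146 to 1526 adjusted reads. Of 5 fibroblast markers COL1A1 fell from 6800 to 5901 adjusted reads and PDGFRB from 241 to 189, with DCN at or below 2.1 in every sample. COL1A2 and LUM had higher means in pladienolide B and did not pass the test. COL1A2 went from 21.5 to 42.2 adjusted reads, with 81.5 in pladienolide B replicate 1, and LUM from 20.9 to 28.3. The 3 endothelial markers tested, of 4, had limma adjusted p-values from 0.0549 to 0.904, and CDH5 was at or below 4.2 adjusted reads. The part of these markers in the results was not tested.

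Mitotic gene expression was lower in the cells treated with pladienolide B, to 76.6% of the DMSO level in the sum of the 50 genes, and each gene was still detected. Of the 50 members, 45 fell, BUB3 rose, and BUB1, SPC25, ECT2 and CDC20 did not pass an adjusted p of 0.05 by limma with Benjamini-Hochberg adjustment over the 16178 tested genes. In all tested genes 25.2% passed as lower, 22.4% as higher and 47.6% in either direction. The members' median log2 fold change was -0.42, with quartiles at -0.57 and -0.28, beside a median of -0.004 over all tested genes. The members ranged from -1.14 for KIF20A to 0.15 for BUB3, and 49 of the 50 lay below the median of all tested genes. The changes were moderate in size, since 10 members fell at least 1.5-fold, where 6.79% of tested genes did, and KIF20A and CENPA fell at least 2-fold, where 1.98% did. BUB3 rose by less than 1.5-fold, and 4.73% of tested genes passed with a rise of at least 1.5-fold.

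**Figure D1:**
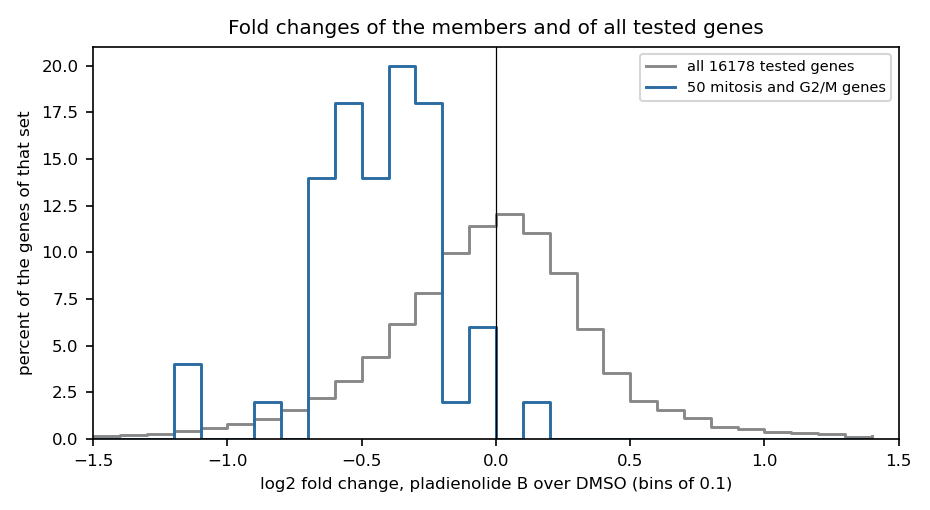
Distribution of log2 fold changes, pladienolide B over DMSO, on the horizontal axis in bins of 0.1, with the percent of each set on the vertical axis, for the 50 members (blue) and all 16178 tested genes (grey). The members' median is -0.42 against -0.004 for all tested genes, and 184 tested genes lie beyond the plotted limits of 1.5 in either direction.

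Together the members had 8391, 8802 and 8318 RPM (adjusted reads scaled to the sample total, as in CPM) in DMSO replicates 1 to 3, and 6835, 6194 and 6510 in pladienolide B replicates 1 to 3. The mean was 8504 ± 261 RPM in DMSO and 6513 ± 320 in pladienolide B (SD, n = 3 per group), or 76.6% of the DMSO level, and the groups did not overlap. Gene by gene, 45 members were lower in every pladienolide B sample than in every DMSO sample, beside 28.8% of all tested genes, and BUB3 was higher in every one, beside 26.4%. In either direction the groups were apart for 46 members, beside 55.3% of tested genes. Among the 9007 tested genes with a mean level within the range of the members, 2775 passed as lower and 2568 as higher, with a median log2 fold change of -0.003.

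The members also moved together within each group. DMSO replicate 2 was the highest DMSO sample for 42 of the 50 members, while it was the highest for 41.1% of all tested genes. Pladienolide B replicate 1 was the highest treated sample for 47 of the 50, beside 33.7% of all tested genes. Replicate 2 was the lowest for 43, and the share over all tested genes was not computed for that count. Relative to each gene's DMSO mean, the members' median was 97.1%, 106.2% and 96.7% in DMSO replicates 1 to 3, and 79.4%, 70.1% and 75.3% in pladienolide B replicates 1 to 3. Much of the difference between replicates of a group thus ran in the same direction across members. Without DMSO replicate 2 the members' median log2 fold change was -0.38 and 45 members passed, and without pladienolide B replicate 2 it was -0.36 and 45 passed.

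**Figure D2:**
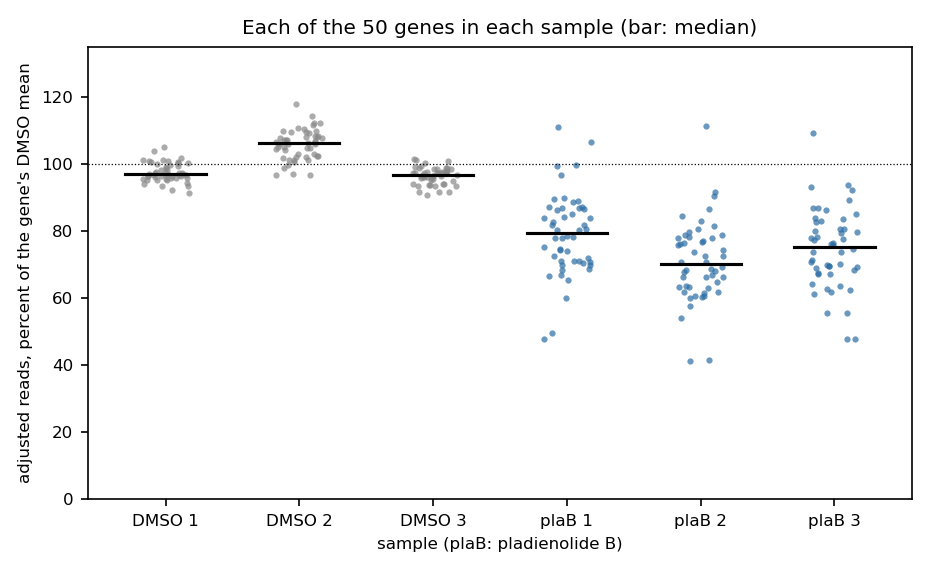
Adjusted reads of each of the 50 members in each of the 6 samples, as a percent of that gene's mean in DMSO (vertical axis), with 1 point per gene and a black bar at the median of the sample. DMSO replicate 2 sits highest, with a median of 106.2%, and the medians of the 3 pladienolide B (plaB) samples lie between 70.1% and 79.4%.

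What the members share in sequence was read from their promoters, given by RefSeq for GRCh38.p14, for 42 of the 50 members, all but AURKA, TPX2, BIRC5, BUB3, TTK, KNL1, UBE2C and FOXM1. A CHR, searched as TTTGAA or TTTAAA on both strands, lay within the 250 bases before the start in 29 of the 42 (69.0%), beside 14.6% of the 12198 tested genes with a promoter and 22.1% of all 27305 promoters. A CCAAT box, searched as CCAAT on both strands, was found in 30 of the 42 (71.4%), beside 34.4% and 33.0%. Both motifs occurred together in 24 of the 42 (57.1%), beside 5.5% of tested genes and 7.9% of all promoters. An E2F-like sequence, searched as TTCCCGC or TTGGCGC on both strands, was found in 8 (19.0%), beside 12.2% and 7.9%. With the 50 bases after the start included, 35 of 42 held a CHR (83.3%), and CCNA2, CDC25B, CDC25C, AURKB, BUB1, SGO1 and MYBL2 held none of the exact letters searched. These matches describe letters in a window and not bound sites.

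**Figure D3:**
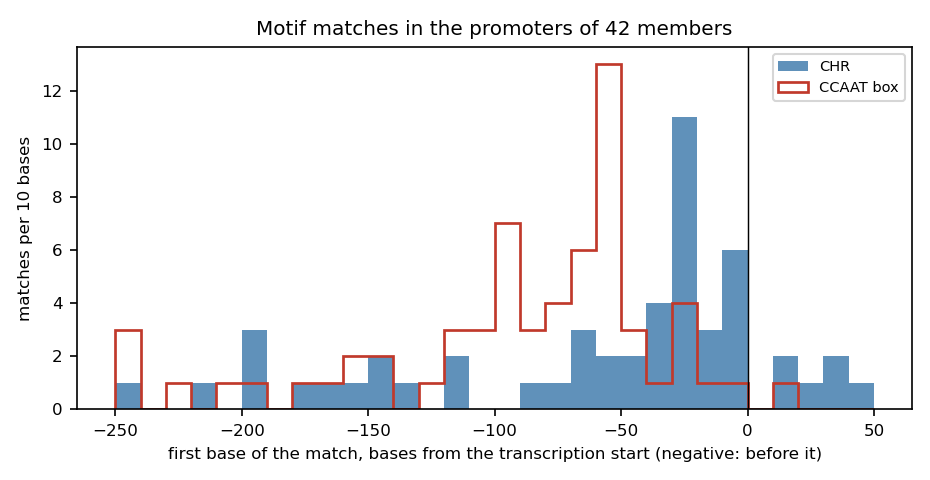
Positions of CHR matches (filled) and CCAAT box matches (red outline) in the promoters of 42 members, as the number of matches per 10 bases against the distance of the first base of the match from the transcription start, negative before it. In 18 of the 29 members with a CHR before the start, the CHR nearest to the start begins within 40 bases of it, and the CCAAT matches are most frequent farther from the start.

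The windows printed here show the CHR in the members with the largest falls, in a cyclin and a checkpoint gene, and in a member that did not pass the test. Those of CENPA and BUB1B hold no CCAAT match, and the others hold both motifs. Capitals mark CHR and CCAAT matches on either strand (ATTGG is CCAAT read on the other strand), each window is printed in the direction of transcription, and in MKI67 the second CHR and an ATTGG share a base. The windows lie at chr5:138179031-138179090 on the plus strand for KIF20A, chr2:26785998-26786055 on the plus strand for CENPA, chr10:128126433-128126492 on the minus strand for MKI67, chr5:69167080-69167139 on the plus strand for CCNB1, chr15:40161006-40161065 on the plus strand for BUB1B and chr1:43358876-43358935 on the plus strand for CDC20 (GRCh38.p14).
KIF20A: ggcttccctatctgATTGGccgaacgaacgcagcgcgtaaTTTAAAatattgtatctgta
CENPA: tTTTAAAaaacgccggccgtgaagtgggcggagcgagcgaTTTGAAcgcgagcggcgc
MKI67: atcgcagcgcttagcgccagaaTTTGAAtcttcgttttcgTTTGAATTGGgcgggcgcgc
CCNB1: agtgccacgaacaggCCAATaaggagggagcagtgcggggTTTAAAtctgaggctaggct
BUB1B: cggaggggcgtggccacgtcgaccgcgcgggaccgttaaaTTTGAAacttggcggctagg
CDC20: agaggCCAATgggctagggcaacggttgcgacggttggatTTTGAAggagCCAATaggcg

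Among the members, the median fall was not larger where the exact CHR letters were found. A CHR with other letters, or at a start other than the first listed, counts here as none. The medians that follow therefore do not compare promoters with a CHR and promoters that lack it. The 29 members with a CHR before the start had a median log2 fold change of -0.38, and the 13 without had -0.49. Some of these 13 hold a CHR across or after the start. With the 50 bases after the start included, the median was -0.38 for the 35 members with a CHR and -0.57 for the 7 without. Single genes went both ways. KIF20A, CENPA and MKI67, with the largest falls of the 50, each held a CHR. CDC20, whose window holds a CHR between a pair of CCAAT boxes, was at 95.7% of its DMSO level. CDC25B, with no exact CHR match in its 300 bases, fell to 65.3%.

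The cyclins, CDK1 and the CDC25 phosphatases drive entry into mitosis, and all 6 of them fell, with a median log2 fold change of -0.52. Here and in the role groups that follow, the counts stand beside 25.2% of all tested genes that passed as lower. CCNA2, the cyclin of S phase and G2, had 3941, 4345 and 3982 adjusted reads in DMSO and 2816, 2513 and 2608 in pladienolide B. Its log2 fold change was -0.63 (SE 0.05, limma adjusted p = 4.64e-08), the largest fall of this group. CCNB1, the partner of CDK1 at mitotic entry, had 5754, 6810.0 and 5715 adjusted reads in DMSO and 4260.0, 3697 and 3909 in pladienolide B. The fall was 0.62 on the log2 scale (SE 0.06, limma adjusted p = 4.88e-07), and DMSO replicate 2 was the highest of the 6 samples. CDC25B, a phosphatase that activates CDK1, was tighter, with 3756, 3716 and 3786 adjusted reads in DMSO and 2500.2, 2317 and 2530.4 in pladienolide B. Its log2 fold change was -0.62 (SE 0.05, limma adjusted p = 1.25e-08). CDC25C, CCNB2 and CDK1 itself fell less, with log2 fold changes of -0.42, -0.42 and -0.38. In each of the 6 genes every treated sample lay below every control, beside 28.8% of all tested genes.

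**Figure D4:**
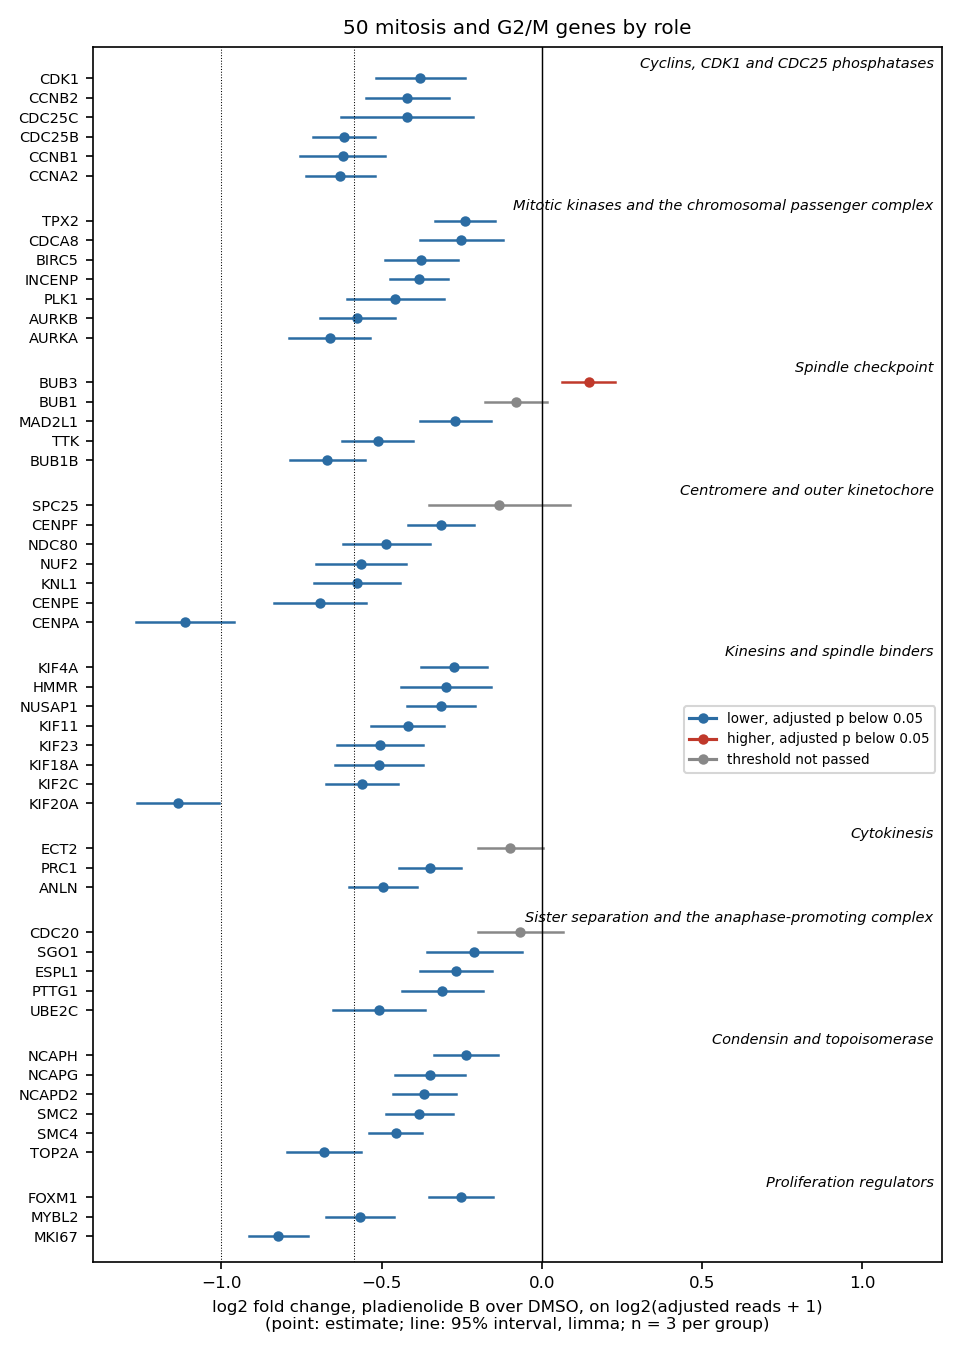
Log2 fold change of each of the 50 members, pladienolide B over DMSO, with its 95% interval from limma (n = 3 per group), grouped by role. Blue points passed as lower (45 genes), the red point as higher (BUB3) and grey points did not pass the threshold (4 genes), and dotted lines mark a 1.5-fold and a 2-fold fall.

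All 7 mitotic kinase and chromosomal passenger genes fell, with a median log2 fold change of -0.38. AURKA, the kinase of spindle poles and centrosomes, had 2719, 2993 and 2589 adjusted reads in DMSO and 1891, 1659 and 1696 in pladienolide B, and every treated sample lay below every control. Its log2 fold change was -0.66 (SE 0.06, limma adjusted p = 1.45e-07), while that of TPX2, the spindle protein that activates AURKA, was -0.24 (95% interval -0.33 to -0.15). The chromosomal passenger complex, which corrects faulty attachments, is made of AURKB, INCENP, BIRC5 and CDCA8. Its 4 genes had log2 fold changes of -0.58, -0.38, -0.38 and -0.25 in that order. The interval of AURKB, -0.69 to -0.46, did not reach that of CDCA8, -0.38 to -0.12. Without the trend of variance on expression, CDCA8 missed the threshold (limma adjusted p = 0.055). PLK1, the Polo-like kinase, was at 73.0% of its DMSO level.

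The spindle checkpoint genes did not move as one. BUB1B, which codes for the checkpoint inhibitor BUBR1, TTK, the kinase that starts checkpoint signalling, and MAD2L1, which binds CDC20, fell. BUB3, a WD-repeat partner of BUB1 and BUBR1, rose, and BUB1 did not pass the test. BUB1B had 2738, 3042 and 2636 adjusted reads in DMSO and 1837, 1694 and 1749.7 in pladienolide B. The groups were far apart, with a log2 fold change of -0.67 (SE 0.06, limma adjusted p = 4.92e-08). BUB3 had 5052, 5049 and 4850.4 adjusted reads in DMSO and 5545, 5551 and 5452 in pladienolide B. Each treated sample was above each control, at 110.7% of the DMSO mean, with a log2 fold change of 0.15 (SE 0.04, limma adjusted p = 0.00578). BUB1 had 7422, 7984 and 7443 adjusted reads in DMSO and 7607, 6899 and 7109 in pladienolide B. Its groups overlapped, and the 95% interval of its log2 fold change ran from -0.18 to 0.02. TTK and MAD2L1 were at 69.9% and 82.9% of their DMSO levels.

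Of the 7 centromere and outer kinetochore genes 6 fell, with a median log2 fold change of -0.56 over the 7. CENPA, the histone H3 variant that marks the centromere, had 1038, 1062 and 994 adjusted reads in DMSO and 510.4, 429 and 494 in pladienolide B. Its level was 46.3% of that in DMSO, a log2 fold change of -1.11 (SE 0.07, limma adjusted p = 2.87e-09), and it remained between -1.16 and -1.04 when any 1 sample was left out. CENPE, the kinetochore motor of the kinesin family, had 4039, 4507 and 3979.7 adjusted reads in DMSO and 2922, 2533 and 2320.0 in pladienolide B. It fell by 0.69 on the log2 scale (SE 0.07, limma adjusted p = 3.54e-07), with pladienolide B replicate 3 the lowest, unlike most members. The microtubule-binding core gave different values for its parts. KNL1 and the NDC80 complex members NUF2 and NDC80 were at 66.9%, 67.7% and 71.2% of their DMSO levels. SPC25, which belongs to the NDC80 complex too, had 345, 445 and 343 adjusted reads in DMSO and 366, 313 and 349 in pladienolide B. Only DMSO replicate 2 was above all treated samples for SPC25, and the interval of its log2 fold change, -0.35 to 0.09, includes no change and also a fall like that of CENPF, at -0.31. SPC25 overlaps NOSTRIN on the opposite strand, a gene with 89.3 adjusted reads in DMSO and 24.9 in pladienolide B, and the strand setting of the counting is not given in the sources used here.

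All 8 kinesin and spindle-binding genes fell, with a median log2 fold change of -0.46. KIF20A, the kinesin that carries the chromosomal passengers to the central spindle, changed most of the 50. It had 1973, 2056 and 2063 adjusted reads in DMSO and 970.0, 838 and 969 in pladienolide B. Its level was 45.6% of DMSO, a log2 fold change of -1.14 (SE 0.06, limma adjusted p = 2.55e-10). DMSO replicate 2 was not the highest sample here, unlike for most members. KIF20A overlaps CDC23 on the opposite strand, and CDC23 rose with a log2 fold change of 0.19 (limma adjusted p = 0.0141). The other 7 had smaller falls. KIF2C, which removes tubulin from microtubule ends, was at 67.8% of DMSO, KIF23, the motor of the centralspindlin complex, at 70.3%, KIF18A, which dampens chromosome movement, at 70.4%, and KIF11, which pushes spindle poles apart, at 74.9%. NUSAP1, HMMR and KIF4A, a chromosome-bound kinesin, were at 80.4%, 81.0% and 82.7%, and HMMR missed the threshold without the variance trend (limma adjusted p = 0.0526).

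Of the 3 cytokinesis genes, ANLN and PRC1 fell and ECT2 did not pass the test. ANLN, the scaffold of the contractile ring, had 16401, 18142 and 16764 adjusted reads in DMSO and 12880.3, 11326 and 12211 in pladienolide B. Its log2 fold change was -0.50 (SE 0.05, limma adjusted p = 4.73e-07). PRC1, which bundles the microtubules of the central spindle, was at 78.6% of DMSO. ECT2, the activator of RhoA at the division site, had 4999.6, 5429 and 5058 adjusted reads in DMSO and 5129, 4733 and 4613 in pladienolide B. Pladienolide B replicate 1 lay among the controls, the interval of the log2 fold change was -0.20 to 0.0035, and without that sample ECT2 passed with -0.14 (limma adjusted p = 0.0393).

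Among the 5 genes of sister separation, UBE2C, PTTG1, ESPL1 and SGO1 fell and CDC20 did not pass. UBE2C, the ubiquitin-conjugating enzyme of the anaphase-promoting complex, had 2368, 2736 and 2361 adjusted reads in DMSO and 1941, 1611 and 1701 in pladienolide B. Its log2 fold change was -0.51 (SE 0.07, limma adjusted p = 1.11e-05). CDC20, the activator of that complex and the target of the checkpoint, had 3407, 3812 and 3473 adjusted reads in DMSO and 3798, 3089 and 3347 in pladienolide B. Pladienolide B replicate 1 lay among the controls and the other treated samples below them, and its log2 fold change of -0.07 (95% interval -0.20 to 0.07) lay between -0.15 and 0.002 when 1 sample was left out. PTTG1, or securin, and ESPL1, the separase it holds in check, were at 80.5% and 83.0% of their DMSO levels. SGO1, the protector of centromeric cohesion, was at 86.2%, and its adjusted p of 0.0206 by limma rose to 0.0812 without DMSO replicate 2 and 0.0663 without pladienolide B replicate 2, and was 0.0571 without the variance trend and 0.0605 after median-centring.

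The condensin subunits and topoisomerase II, which shape mitotic chromosomes, all fell, with a median log2 fold change of -0.37 over the 6. TOP2A had 12768, 14403 and 12914 adjusted reads in DMSO and 8932, 7711 and 8389 in pladienolide B, and the treated samples lay far below the controls. Its log2 fold change was -0.68 (SE 0.05, limma adjusted p = 3.44e-08). The 5 condensin genes fell less. The ATPase subunits SMC4 and SMC2 were at 72.9% and 76.7% of DMSO, and the condensin I subunits NCAPD2, NCAPG and NCAPH at 77.6%, 78.6% and 84.9%.

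The last group holds MKI67, the proliferation marker Ki-67, and the transcription factors MYBL2 and FOXM1, and all 3 fell. MKI67 had 12726, 12932 and 12353 adjusted reads in DMSO and 7604, 6868 and 7046 in pladienolide B. It was at 56.6% of its DMSO level, with a log2 fold change of -0.82 (SE 0.04, limma adjusted p = 2.55e-10). MYBL2, or B-Myb, had 4325, 4111 and 4290.3 adjusted reads in DMSO and 3078, 2676 and 2852 in pladienolide B, 67.6% of DMSO. FOXM1 had 4528, 4514 and 4419.5 adjusted reads in DMSO and 3911, 3497 and 3906 in pladienolide B, 84.0% of DMSO. The intervals of these factors, -0.67 to -0.46 for MYBL2 and -0.35 to -0.15 for FOXM1, did not overlap. FOXM1 shares its locus with RHNO1 on the opposite strand, which had a log2 fold change of -0.68 (limma adjusted p = 5.21e-07).

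Per length of exon, the members were abundant RNAs in the control cells. Their median was 33.9 in DMSO in units of RPM per kilobase of exon, beside 4.54 for the 15059 tested genes with a length, and all 50 were above that value. TPX2 was the highest at 136, followed by ANLN at 115 and CCNB1 at 101, and CDC25C was the lowest at 6.69. On the same per-length scale, CENPA went from 21.3 to 10.1 and KIF20A from 21.3 to 9.93. The canonical transcripts of the members had a median of 16.5 exons, against 8 for tested genes. Of the 50 members 19 overlap another annotated gene. Reads may be shared with genes on the opposite strand if strand was not used. For BUB1B, BUB1, KIF2C, SMC4 and NCAPD2 an overlapping gene lies on the same strand, which counting by strand would not resolve. That of BUB1B is BUB1B-PAK6, with 11.92 adjusted reads in DMSO and 17.95 in pladienolide B. Beside those already named, the overlapping genes with most reads were EXOSC9, on the opposite strand to CCNA2, with 2602 adjusted reads in DMSO and a log2 fold change of -0.23 (limma adjusted p = 0.000847), and FAM53C, opposite to CDC25C, with 1907 and 0.14 (limma adjusted p = 0.0367). Neither exon number nor level went with the size of the change among the 50 members, which share the same 6 libraries, with a Spearman rho of -0.09 for exon number (Pearson r -0.09) and -0.06 for the DMSO level.

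A further 112 genes of the same pathway, in 7 lists that share no gene with the members, showed where the fall extended. Of the 111 that were tested, 63 passed as lower and 10 as higher, with a median log2 fold change of -0.19, beside 25.2% and 22.4% of all tested genes. Spindle and cytokinesis genes were the nearest to the members, with 18 of 19 lower and a median of -0.41. CIT, the citron kinase, fell by 0.91 on the log2 scale, the kinesin KIF15 by 0.80 and SPAG5, or astrin, by 0.70. Genes of mitotic entry control followed, with 8 of 11 lower and a median of -0.37, among them BORA, which activates PLK1 with AURKA, with a log2 fold change of -0.55, CKS1B with -0.49 and GTSE1 with -0.48. CDC25A, a phosphatase of the same family as CDC25B and CDC25C, rose with a log2 fold change of 0.39, opposite to both.

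**Figure D5:**
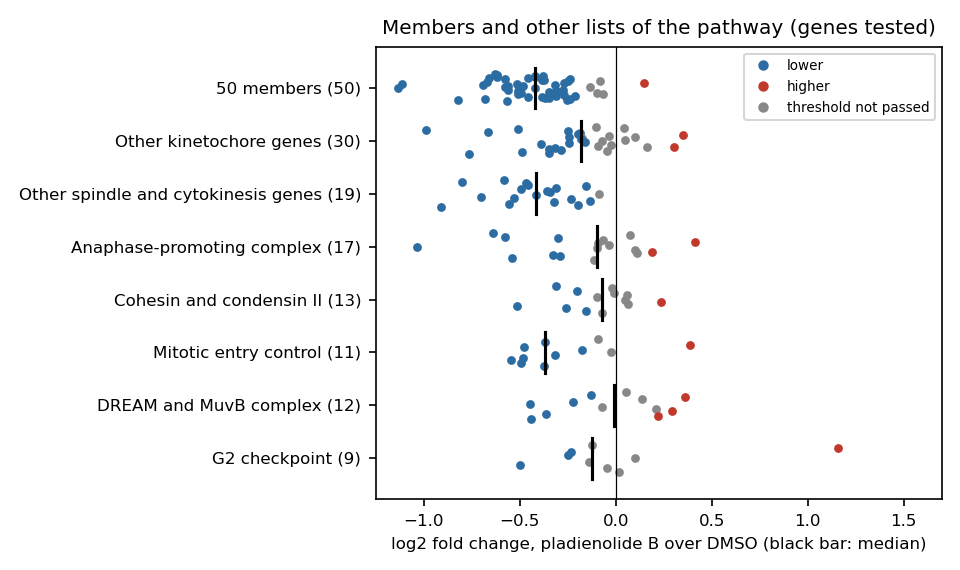
Log2 fold change of each tested gene, pladienolide B over DMSO, for the 50 members and for 7 other lists of the pathway, with the number of genes tested in brackets and a black bar at the median. The medians run from -0.42 in the members and -0.41 in the spindle and cytokinesis list to -0.01 in the DREAM and MuvB list, and the point farthest to the right is CDKN1A.

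The other kinetochore genes were mixed, with 17 of 30 lower and 2 higher, beside 25.2% and 22.4% of all tested genes. Their median log2 fold change was -0.18. HJURP, the chaperone that deposits CENPA, had a log2 fold change of -0.76, and CENPK and CENPM, of the inner kinetochore network, of -0.99 and -0.67. CENPP and ZW10 rose by 0.35 and 0.31 on the same scale. Of the 17 anaphase-promoting complex genes 7 were lower and 2 higher, beside the same shares, with a median of -0.10. ANAPC15 fell by 1.04 on the log2 scale, ANAPC1 by 0.64 and ANAPC4 by 0.58, while ANAPC10 rose by 0.41 and CDC23, which overlaps KIF20A, by 0.19. In the list of cohesin and condensin II genes 5 of 13 were lower and 1 higher, again beside these shares, with a median of -0.07. Its largest falls were those of SGO2 with a log2 fold change of -0.51, SMC1A with -0.31 and NCAPG2 with -0.26, and PDS5B rose with 0.23.

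Of 12 DREAM and MuvB genes, which regulate this programme, 5 were lower and 3 higher, beside 25.2% and 22.4% of all tested genes, with a median log2 fold change of -0.01. E2F4, an E2F of the DREAM complex, had 2109, 2156 and 2030.0 adjusted reads in DMSO and 2676, 2686 and 2726 in pladienolide B. It rose with a log2 fold change of 0.36 (SE 0.04, limma adjusted p = 4.72e-06). LIN52 and RBBP4, subunits of the MuvB core, rose with 0.29 and 0.22. LIN54, the subunit that recognises the CHR, had 1381, 1175 and 1318 adjusted reads in DMSO and 990.2, 1052 and 962 in pladienolide B, and fell with a log2 fold change of -0.36 (SE 0.06, limma adjusted p = 0.000174). TFDP2 and MYBL1 both had a log2 fold change of -0.44, and RBL2, the pocket protein p130, of -0.13 (limma adjusted p = 0.0479). In the G2 checkpoint list 3 of 9 tested genes were lower and 1 higher, beside the same shares. CDKN1A, the inhibitor of cyclin-dependent kinases, rose with a log2 fold change of 1.16, and ATM, SFN and GADD45A fell with -0.50, -0.25 and -0.23.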

How the data were processed

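RNA was measured in 3 DMSO and 3 pladienolide B samples of OVCAR8 cells. Per the labels, polyadenylated RNA was selected. The methods name trimming, alignment to hg38 with hisat2 and DESeq2; the submitters' processing notes name HISAT2, HTSeq 0.12.4, DESeq2 and hg19. Positions in the table overlap those of GENCODE v44 on GRCh38 for 99.92% of 26990 symbols. The authors deposited for each gene and sample a signal adjusted for library size, beside their own log2 fold change, p-value and q-value, which were not used. The deposited signal matched edgeR's quantile adjustment of counts (common dispersion 0.002698). Whole reads were obtained by inverting it and rounding. Adjusting these reads again matched 100% of 148143 values above 0 within 0.02 reads. The largest difference from a deposited value was 4.91e-05.

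Genes were kept by edgeR 4.0.16 filterByExpr defaults (minimum count 10, total 15) and tested with limma 3.58.1 on log2(value + 1) with a variance trend, two-sided, with Benjamini-Hochberg adjustment over 16178 genes and a threshold of 0.05. Adding 1 makes the fold changes of low genes smaller. Scripts were tested on simulated data. Recovered reads were also tested with edgeR's quasi-likelihood test, on which 7738 genes passed, and with DESeq2 1.42.0. Other alternatives were median-centring, no variance trend, other filters, a pseudocount of 0.1, a replicate block and leaving out each sample. Depth was 22621338 to 26130882 reads on genes.

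The members and lists were chosen with earlier results of these data known. All members are named, with full statistics for those called and at least 1.5-fold changed and for the largest rise or fall of each role. Of the other lists the 3 largest called rises and falls were named, with CDKN1A, LIN54, E2F4 and RBL2 whatever their values; 1 other gene of that rule is not reported here. MYBL2, FOXM1, BUB1, SPC25, ECT2 and CDC20 were given in every sample after their values were seen. Overlaps and lengths come from GENCODE, promoters from RefSeq (first listed start). Lists received no test.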

Additional observations from a re-analysis of the deposited data

How the results depend on the processing

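Over 15 alternatives, 742 of 750 log2 fold changes of single members kept their direction and their side of the threshold, 6 lost the call, 1 gained it and 1 changed sign. SGO1 lost its call with median-centring (adjusted p = 0.0605 by limma), without the variance trend (0.0571) and without DMSO replicate 2 or pladienolide B replicate 2. CDCA8 and HMMR lost theirs without the variance trend (adjusted p = 0.055 and 0.0526 by limma), and ECT2 was called without pladienolide B replicate 1. The value that changed sign was that of CDC20, which was not called, at 0.002 without pladienolide B replicate 2, with a range from -0.147 to 0.002 when 1 sample was left out. The cause was not tested. The number of members called ran from 43 without the variance trend to 47 without pladienolide B replicate 1, and was 46 with edgeR and DESeq2, with the 46 of limma among them each time. The members' median lay between -0.46 and -0.36, both extremes coming from leaving out 1 sample, and that of all tested genes between -0.008 and 0.041. After median-centring 3444 genes were lower and 4373 higher, beside 4077 and 3618. The numbers of other pathway genes that were lower and higher ran from 55 to 64 and from 9 to 15.

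Replicate numbers did not pair the samples: deviations from the group means of same-numbered samples correlated with r = -0.018, -0.017 and 0.003 for replicates 1, 2 and 3. With the replicate block 46 members and 7349 genes passed, including all 46 members of the fit without it. With 3 samples a group, small changes such as those of BUB1, SPC25, ECT2 and CDC20 were not resolved.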

Other observations

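The promoter motifs were also compared with the response over all tested genes that have a RefSeq promoter. Leaving out the 50 members and the 7 other lists, 633 tested genes held both a CHR and a CCAAT box in the 250 bases before the start. Of these 188 (29.7%) were lower and 115 (18.2%) higher in pladienolide B by limma, with a median log2 fold change of -0.05. Of the 6856 such genes with neither motif, 25.2% were lower and 23.8% higher, with a median of 0.003. With a CHR and no CCAAT box, 1089 genes had 23.9% lower and 23.7% higher, and with a CCAAT box and no CHR, 3482 genes had 26.8% lower and 22.3% higher. Among the pathway lists, a CHR was found before the start in 8 of 18 spindle and cytokinesis genes with a promoter, in 6 of 9 mitotic entry genes, in 5 of 24 kinetochore genes, in 2 of 17 anaphase-promoting complex genes, in 1 of 11 cohesin and condensin II genes, in 2 of 10 DREAM and MuvB genes and in 1 of 8 G2 checkpoint genes, beside 14.6% of tested genes.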
